A study of Mus musculus with 6 samples.

Results

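The BCL2 family is represented here by 10 genes taken by symbol from the deposited expression table, Bcl2, Bcl2l1, Mcl1, Bax, Bak1, Bbc3, Pmaip1, Bcl2l11, Bid and Bik, out of 56748 genes in the table. Each symbol matched 1 gene identifier. Expression was measured by RNA sequencing of primary airway basal stem cells from wild-type mouse trachea after 4 days in culture. Of the 6 libraries, 3 came from cells treated with UK-5099, which blocks the mitochondrial pyruvate carrier. The other 3 were treated with Y-27632 plus A8301 plus DMH-1, called the 3 inhibitors below. A8301 blocks type I receptors of TGF-beta, and DMH-1 blocks type I receptors of BMP. Whether Y-27632 was also present in the UK-5099 medium is not stated. Neither group was left without an inhibitor, so a value lower with UK-5099 is equally a value higher with the 3 inhibitors. The labels give neither the age of the mice nor whether animals were pooled, and they do not tie the replicates to separate animals or cultures. The p-values therefore measure the spread between these libraries, which may be technical.

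Proteins of the BCL2 family decide whether the outer mitochondrial membrane is opened during apoptosis. BAX and BAK1 form the pore, BCL2, BCL-XL (encoded by Bcl2l1) and MCL1 hold them and their activators in check, and the BH3-only proteins, which share only the short BH3 domain, sense damage or stress and either bind the guardians or switch on BAX and BAK1. Once the pore is open, cytochrome c leaves the mitochondria, joins APAF1 and starts the caspase cascade. In epithelial cells MCL1 and BCL-XL are the guardians usually relied upon, and several BH3-only genes are targets of p53 or of FOXO transcription factors.

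With UK-5099, 5 of the 10 genes were lower and none higher: the guardian Bcl2l1, the pore former Bax, and the BH3-only genes Bbc3, Bcl2l11 and Bik. The other 5, Bcl2, Mcl1, Bak1, Pmaip1 and Bid, did not pass the test. A gene counted as called at a Benjamini-Hochberg adjusted p under 0.05 in limma, fitted over every gene whose mean reached 10 normalized counts (gene read counts scaled by the authors with library size factors). Of 15704 genes tested, 53.8% were called, 4275 higher and 4174 lower, so that 26.6% of all genes tested were called lower. The share called among the 10 was thus near that of all genes. The median log2 fold change, UK-5099 minus 3 inhibitors, was -0.19 over the 10 and -0.00 over all genes tested. The difference was at least 1.5-fold for Bcl2l1, Bbc3 and Bik, 3 of the 10. Of all genes tested, 21.7% were called with such a fold and 11.2% were so in the lower direction. After centring the libraries on their median gene, 3375 genes were called higher and 5261 lower, 55.0% in all, and Mcl1 and Bak1 joined the lower members to make 7. That centring lowered the log2 fold change of every gene by 0.0887, so that the median over all genes tested was -0.09.

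Values of the UK-5099 and 3-inhibitor libraries did not overlap for 6 of the 10 genes, the 5 called and Bcl2, against 60.8% of all genes tested. In the lower direction this held for 5 of the 10 and for 30.1% of all genes tested. The plot of single libraries shows these 6 beside the 4 with overlapping values.

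**Figure D1:**
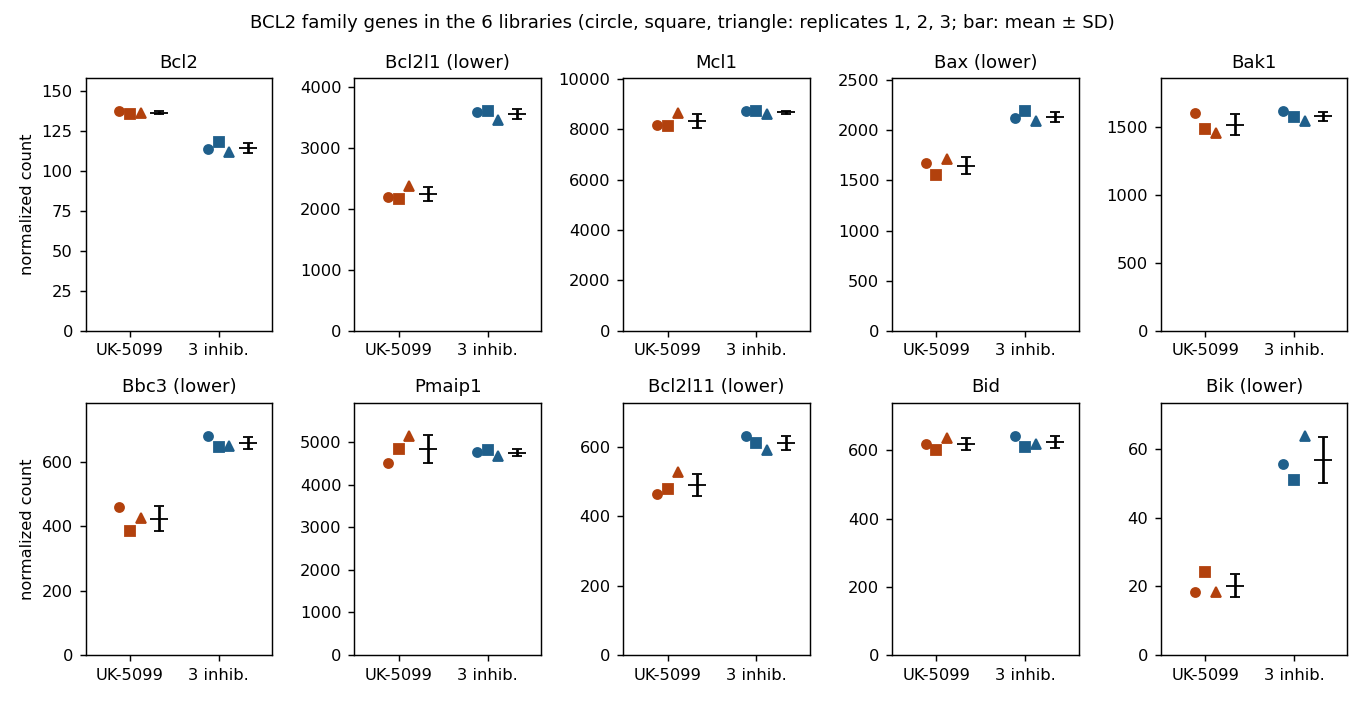
Normalized counts (y axis, from 0, a scale of its own for each gene) of the 10 BCL2 family genes in the 3 UK-5099 libraries and the 3 libraries of the 3 inhibitors (x axis); symbols are replicates, and the bar is the mean ± SD. Bcl2l1, Bax, Bbc3, Bcl2l11 and Bik sit lower in all 3 UK-5099 libraries than in any 3-inhibitor library, and Bcl2 sits higher.

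The libraries held between 19909589 and 27037795 reads in genes, and the 10 genes between 15 reads (Bik) and 9751 reads (Mcl1) in a library. The cells carried the markers of the basal cells named in the labels. The 9 genes of the basal list summed to between 283938 and 305855 normalized counts per library with UK-5099. With the 3 inhibitors the sum was between 150387 and 165102. Of the 9 genes, 6 were higher with UK-5099, among them Krt5 and Krt14. Ngfr and Aqp3 were lower, and Krt15 did not pass. Secretory cell markers moved with the groups, 6 of 6 tested being lower with UK-5099, and the sum over all 8 was between 12474 and 14736 against between 57312 and 60073 normalized counts. Most of that sum came from Cbr2, with means of 6150 with UK-5099 and 42902.5 with the 3 inhibitors, and Krt8, with 5611 and 10027. Scgb1a1, the first gene of the list, had means of only 36.5 and 171. Fewer cells of a type and less RNA per cell cannot be told apart in such bulk libraries. Leukocyte markers summed to between 21.3 and 28.8 normalized counts with UK-5099 and to between 64.9 and 78.6 with the 3 inhibitors; Cd74 was lower, Ptprc reached at most 1.03, and Tyrobp was at 0 in every library. Fibroblast markers summed to at most 14.6 and 10.05, with Col1a2, Col3a1 and Lum at 0, and of the endothelial markers Cdh5 and Emcn were at 0 while Tie1 and Vwf were lower with UK-5099. Of the multiciliated cell markers, 3 of 4 tested were higher with UK-5099, Tubb4b 1.24-fold, Rsph1 1.76-fold and Cfap43 1.54-fold. The sum over all 7 was between 7331 and 8039 against between 6114 and 6455 normalized counts, nearly all of it from Tubb4b, a tubulin of many cell types, and Foxj1, which defines these cells, reached 5.15 at most. Xist was 1.70-fold higher with UK-5099, and the Y-linked Ddx3y, Eif2s3y, Kdm5d and Uty were between 1.52-fold and 2.15-fold lower. Every library held at least 13779 reads of Xist and 336 of Ddx3y, and so RNA of both female and male cells. The balance of the sexes therefore went with the treatment, and the 2 cannot be told apart. The part of the secretory, multiciliated, leukocyte and endothelial markers and of the sex-linked difference in the BCL2 family values was not tested.

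Among the 3 guardians, Bcl2l1 passed the test and Bcl2 and Mcl1 did not. BCL-XL, its long protein product, sits in the outer mitochondrial membrane and binds BAX, BAK1 and BH3-only proteins. Bcl2l1 (ENSMUSG00000007659) stood at 2190.5, 2159 and 2372.5 normalized counts in UK-5099 replicates 1, 2 and 3, and at 3588, 3593 and 3451 in 3-inhibitor replicates 1, 2 and 3. All 3 UK-5099 libraries lay well below the lowest 3-inhibitor library, and the groups did not come near each other. The means were 2241 ± 115 and 3544 ± 80.5 (SD, n = 3 each), a 1.58-fold difference (log2 fold change -0.66 ± 0.05, SE; limma adjusted p = 4.18e-07). The call held under each of the 16 alternative fits, with adjusted p up to 0.000537. The table counts reads per gene, so the long, antiapoptotic form and the short, death-promoting splice form of Bcl2l1 are added together, and the same holds for the splice forms of Mcl1 and Bcl2l11.

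Mcl1, a guardian with a short-lived protein, had the most reads of the 10. It stood at 8176, 8149 and 8635 normalized counts with UK-5099 and at 8707, 8714 and 8602 with the 3 inhibitors. UK-5099 replicate 3 reached into the range of the 3-inhibitor libraries, and the other UK-5099 libraries lay just below it. The log2 fold change was -0.06 ± 0.04 (SE), with a limma adjusted p of 0.219. Mcl1 passed the test when the libraries were centred on their median (log2 fold change -0.15, adjusted p = 0.00740) and when UK-5099 replicate 3 was left out (-0.09, adjusted p = 0.0352), in a range of adjusted p over the alternatives from 0.00740 to 0.450.

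Bcl2, which gave the family its name, had between 110 and 146 reads per library. Its values were 137, 135 and 136 normalized counts with UK-5099 and 113, 118 and 111 with the 3 inhibitors. All UK-5099 libraries were above all 3-inhibitor libraries and close to each other, yet the difference did not pass the test (log2 fold change 0.25 ± 0.11, SE; limma adjusted p = 0.0818). The fit gives genes of low count a common, wider error than these 3 libraries show. Without that dependence of the error on abundance, Bcl2 passed (limma adjusted p = 0.00633), and over the alternatives its adjusted p ran from 0.00633 to 0.241. The SD over the UK-5099 libraries, 0.83 normalized counts, is smaller than the counting error at so few reads. Their closeness is therefore no measure of precision, and the call without the trend rests in part on it.

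The pore formers did not move alike. Bax (ENSMUSG00000003873), whose protein waits in the cytosol and moves to mitochondria when activated, stood at 1679, 1551 and 1717 normalized counts with UK-5099 and at 2123, 2191 and 2097 with the 3 inhibitors. The highest UK-5099 library was below the lowest 3-inhibitor library. The fall was 1.30-fold (log2 fold change -0.37 ± 0.05, SE; limma adjusted p = 6.06e-05). Bak1, whose protein resides in the outer membrane, stood at 1603, 1485 and 1454 normalized counts with UK-5099 and at 1612, 1568 and 1543 with the 3 inhibitors. Here the groups overlapped, UK-5099 replicate 1 lying among the 3-inhibitor libraries (log2 fold change -0.06 ± 0.05, SE; limma adjusted p = 0.368). Bak1 passed only when libraries were centred on the median (-0.15, adjusted p = 0.0225), in a range over the alternatives up to 0.656. Exon overlaps were taken from GENCODE M21, a mouse annotation of another build than the one named for the files. There, exons of Bak1 share 18.2% and 7.35% of their bases with entries named Ggnbp1 on the opposite strand. Exons of Bax share 12.2% of their bases with Gm45808 on the same strand, and those of Bcl2 share 6.09% with D630008O14Rik on the opposite strand. Whether reads were counted by strand is not given in the sources used here, so reads in the opposite-strand stretches cannot be assigned with certainty. In the same-strand stretch of Bax, counting by strand would not tell them apart either.

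Of the BH3-only genes, 3 of 5 were lower with UK-5099. For 2 of the 3, Bbc3 and Bcl2l11, a promoter window holds the forkhead core, while other windows of the same genes do not. The windows with the core are shown because both genes are known FOXO targets, and they were chosen after the values were seen. Whether FOXO factors had a part in the lower values was not tested. Both windows are the 250 bases before an annotated transcription start, from RefSeq on GRCm38.p6, written 5′ to 3′ on the plus strand, with the 7 bases of the core in capitals. The Bbc3 window is chr7:16310011-16310260, before the second of 3 start sites in that table, and the Bcl2l11 window is chr2:128125788-128126037, before the first of 2.
Bbc3: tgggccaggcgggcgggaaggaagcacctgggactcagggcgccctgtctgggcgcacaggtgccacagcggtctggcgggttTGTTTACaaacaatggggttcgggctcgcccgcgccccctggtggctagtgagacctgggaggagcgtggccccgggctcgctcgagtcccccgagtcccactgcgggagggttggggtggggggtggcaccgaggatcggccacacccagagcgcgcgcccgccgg
Bcl2l11: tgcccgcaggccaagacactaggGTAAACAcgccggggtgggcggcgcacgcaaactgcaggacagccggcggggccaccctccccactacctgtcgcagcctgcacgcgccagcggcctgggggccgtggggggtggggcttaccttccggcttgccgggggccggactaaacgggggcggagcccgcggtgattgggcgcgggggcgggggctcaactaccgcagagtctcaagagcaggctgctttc
The core was searched as GTAAACA on both strands in windows that also took in the first 50 transcribed bases. It begins 227 bases before the start in Bcl2l11, and in Bbc3 it lies on the other strand, 167 bases before. Of all 32851 windows of that length, 3.65% hold it. Windows were found for 8 of the 10 genes, all but Bik and Pmaip1, 13 windows in all. Among these 8 genes only Bbc3 and Bcl2l11 held a forkhead core, in 2 windows. Of all genes with a window, 4.05% held it. The E-box CACGTG, searched the same way, was in windows of Bax and Bbc3 and in 7.15% of all windows, and the 10-base p53 element, of which a full p53 site holds a pair, was in that of Bax and in 8.36% of all windows, searched with no mismatch. No match of one motif overlapped a match of another. The windows of the 10 genes held between 1 and 44 CpG dinucleotides, against a median of 7 over all windows, and the fewest were in a window of Bcl2l1. These matches describe the letters only.

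Bbc3 (ENSMUSG00000002083) encodes PUMA, a BH3-only protein that binds all guardians and is induced by p53 and FOXO3. It stood at 461, 384 and 426 normalized counts in the UK-5099 libraries and at 682, 648 and 651 in the 3-inhibitor libraries. No UK-5099 library came within reach of the lowest 3-inhibitor library. The fall was 1.56-fold (log2 fold change -0.64 ± 0.08, SE; limma adjusted p = 2.41e-05).

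Bcl2l11 (ENSMUSG00000027381) encodes BIM, which kills cells deprived of growth factors or detached from matrix. Its counts were 465, 479 and 527 with UK-5099 and 633, 613 and 593 with the 3 inhibitors. The groups were closer than for Bbc3 but still apart, and the fall was 1.25-fold (log2 fold change -0.32 ± 0.07, SE; limma adjusted p = 0.00192). Both Bbc3 and Bcl2l11 kept their calls in all 16 alternative fits, with adjusted p of at most 0.00170 and 0.0121.

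Bik (ENSMUSG00000016758), whose BH3-only protein acts at the endoplasmic reticulum, had the largest fold difference of the 10 and the fewest reads. It stood at 18.3, 24.1 and 18.3 normalized counts with UK-5099 and at 55.7, 50.9 and 63.9 with the 3 inhibitors. Every 3-inhibitor library held more than any UK-5099 library, from between 15 and 70 reads in each. The fall was 2.74-fold on the scale of log2 of the count plus 1 (log2 fold change -1.45 ± 0.22, SE; limma adjusted p = 0.000186), and it kept its call in the 15 alternatives that tested it. A minimum mean of 50 normalized counts removed it.

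Pmaip1, which encodes NOXA, a BH3-only protein that binds MCL1 and is another known p53 target, had the highest level of the 5 BH3-only genes per kb of exon. Its values were 4504, 4843 and 5152 normalized counts with UK-5099 and 4771, 4826 and 4663 with the 3 inhibitors. The UK-5099 libraries spread to both sides of the 3-inhibitor libraries (log2 fold change 0.02 ± 0.05, SE; limma adjusted p = 0.743). Bid, the BH3-only protein that carries the signal of death receptors to mitochondria once caspase-8 has cut it, stood at 618, 602 and 637 against 643, 610.35 and 618 normalized counts. These values were interleaved (log2 fold change -0.01 ± 0.06, SE; limma adjusted p = 0.893). The sign of the fitted difference of Pmaip1 and Bid turned with the scaling, and neither passed in any of the 16 alternatives. In GENCODE M21, exons of Bid share 17.7% of their bases with Bcl2l13, another BCL2 family gene, on the opposite strand.

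Per length of exon in GENCODE M21, the order of the levels was led by Mcl1 in both groups, at 2434 ± 79.9 normalized counts per kb under UK-5099 against 2538 ± 18.4 under the other treatment (SD, n = 3). Pmaip1 followed at 1769 ± 119 and 1740 ± 30.4 normalized counts per kb, and Bax at 1046 ± 55.4 and 1356 ± 30.9. Below them the order differed between the groups: Bak1 (629 ± 32.7) stood above Bcl2l1 (489 ± 25.2) with UK-5099, and Bcl2l1 (773 ± 17.6) above Bak1 (654 ± 14.5) with the 3 inhibitors. The order depends on the gene model. With the longest protein-coding transcript as the length, Bcl2l1 stood above Bak1 in both groups, Bax (1943 normalized counts per kb) above Pmaip1 (1743) with the 3 inhibitors, and Bid (283) above Bbc3 (234) with UK-5099. At the low end, Bcl2 and Bik overlapped with UK-5099 at 14.9 ± 0.09 and 12.7 ± 2.12 normalized counts per kb, and were apart with the 3 inhibitors at 12.5 ± 0.37 and 35.7 ± 4.14. By exon length, the values of all other neighbours were apart in both groups.

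**Figure D2:**
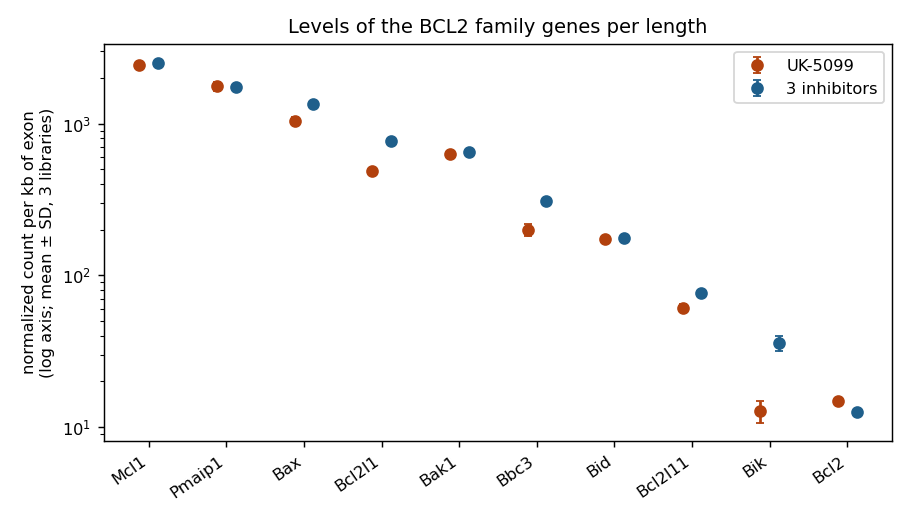
Normalized counts per kb of exon (y axis, logarithmic) of the 10 genes (x axis) in the 3 UK-5099 libraries and the 3 libraries of the 3 inhibitors, as mean ± SD. Mcl1 is highest in both groups, and Bik and Bcl2 are lowest.

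The other genes of the family, from lists chosen from general knowledge, numbered 16, of which 11 passed the low filter, 3 being higher, 5 lower and 3 not called. Their median log2 fold change was -0.15. Means given as a pair from here on are normalized counts, with UK-5099 first and the 3 inhibitors second. Among the guardians, Bcl2l2, which encodes BCL-W, had means of 1168 ± 22.5 and 1072 ± 5.70 (SD, n = 3), with a log2 fold change of 0.12 ± 0.05 and a limma adjusted p of 0.0428. That call was lost in 9 of 16 alternatives, each of UK-5099 replicates 1 and 2 and of the 3-inhibitor replicates being enough when left out, with adjusted p from 0.0631 to 0.114 in those fits and up to 0.551 after centring. Bcl2l10 and the near-identical Bcl2a1a, Bcl2a1b and Bcl2a1d, which are known from blood cells, had at most 1.79 normalized counts in any library. Copies so alike can share reads, so the levels of the Bcl2a1 genes are uncertain.

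Bok, a BAX-like pore former, was 1.47-fold higher with UK-5099 with limma adjusted p = 0.00184, its mean being 301 ± 24.7 and 206 ± 29.3 (SD, n = 3). Bcl2l13, a mitochondrial relative, was 1.16-fold higher and shares the exon overlap with Bid given above. Bcl2l14 and Bcl2l15, less studied relatives, were 2.20-fold and 1.32-fold lower, and the call of Bcl2l15 was lost without UK-5099 replicate 1 or 3-inhibitor replicates 2 or 3 (adjusted p = 0.0935, 0.108 and 0.0514). Bcl2l12 did not pass (adjusted p = 0.109), though it did without UK-5099 replicate 2 (0.0259) or 3-inhibitor replicate 3 (0.0248). Bnip3, a receptor for the removal of mitochondria that is induced in low oxygen, was 1.92-fold lower, at 1855 ± 207 with UK-5099 and 3542 ± 96.1 with the other treatment. Its paralog Bnip3l was 1.11-fold lower.

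Among further BH3-only genes Bmf, which answers to loss of attachment, was 1.78-fold lower, with means of 108 ± 4.19 and 194 ± 23.2 (SD, n = 3; limma adjusted p = 0.000123). Bad (253 ± 6.44 against 282 ± 19.2) and Becn1 (1835 ± 142 against 2036 ± 110) did not pass at adjusted p of 0.170 and 0.0568. Becn1, the autophagy protein with a BH3 domain, passed without UK-5099 replicate 3 (0.00180) or 3-inhibitor replicate 3 (0.0475), and both passed after centring. Hrk, a neuronal BH3-only gene, was under the filter at 5.07 and 4.47 normalized counts. Thus 4 of the 8 BH3-only genes tested, Bbc3, Bcl2l11, Bik and Bmf, were lower with UK-5099 and none was higher, as the plot of fold changes shows, against 53.8% of all genes tested called and 26.6% called lower. The share called was thus near that of all genes.

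**Figure D3:**
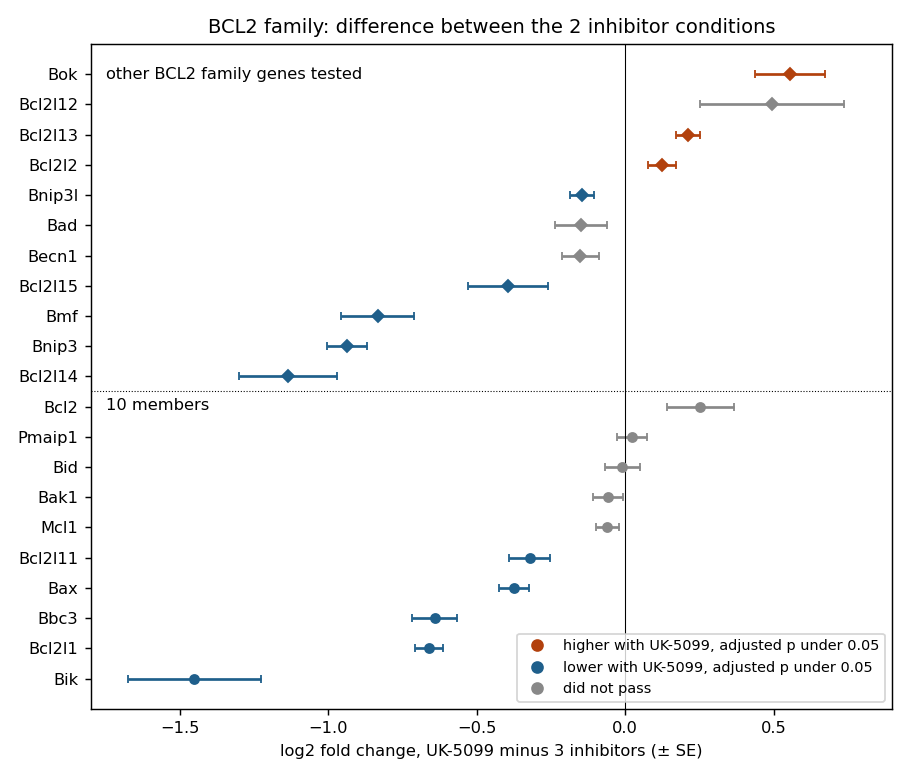
Log2 fold change, UK-5099 minus 3 inhibitors, ± SE of the fit (x axis) for the 10 members and the 11 other BCL2 family genes tested (y axis), coloured by limma call. All called members lie left of 0, while Bok, Bcl2l13 and Bcl2l2, also called, lie right of it.

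Around the family, 83 of 89 genes of the apoptosis pathway were tested. UK-5099 libraries had 25 of these genes higher and 27 lower, with a median log2 fold change of 0.02. The share of calls was near the 53.8% of all genes tested, and the counts of the separate lists differed. Of all genes tested, 27.2% were called higher and 26.6% lower, and lists this short can stray from such shares. The splits moved with scaling: over these genes and the other BCL2 family genes together, 28 were higher and 32 lower as fitted, and 22 and 44 after centring. After centring, the higher and lower counts were 1 and 1 for the genes downstream of the pore, 2 and 5 for the caspases and 3 and 2 for the death receptors. They were 3 and 8 for the p53 list and 4 and 4 for the list of other transcription factors, which also holds Trib3. Downstream of the pore, 2 of 7 genes were higher and 1 lower. Htra2, a protease released from mitochondria, was 1.48-fold higher and Cycs, which encodes cytochrome c, 1.13-fold higher, while the initiator Casp9 was 1.25-fold lower. The call of Cycs was lost without UK-5099 replicate 1 (adjusted p = 0.0812) or 3-inhibitor replicates 1 or 3 (0.0546 and 0.0516), in a range up to 0.174. Of the 11 caspases and their substrates, 3 were higher and 4 lower, and without 3-inhibitor replicate 3 these counts were 2 and 2. As fitted over all libraries, the list had Parp1, a DNA repair enzyme cut by caspases, 1.47-fold higher and the inflammatory caspase Casp4 1.40-fold lower.

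Of 7 inhibitors of apoptosis tested, 2 were higher and 4 lower, against 27.2% of all genes tested called higher and 26.6% called lower. Birc5, survivin, which also serves in mitosis, was 2.03-fold higher, with means of 1013 ± 72.2 and 499 ± 43.2 (SD, n = 3). Birc3, induced by NF-kappaB, was 1.58-fold lower, and the giant ligase Birc6 was 1.21-fold lower. Naip5 was at 2.92 ± 1.69 against 26.9 ± 4.04 normalized counts, but the Naip genes are near-identical copies that can share reads, so its level is uncertain. In the death receptor list 4 of 10 genes were higher and 1 lower, against the same shares of all genes tested. The necroptosis genes Mlkl, the membrane executioner, and Ripk3, its kinase, were 2.12-fold and 1.83-fold higher, and the TNF receptor Tnfrsf1a was 1.47-fold higher, whereas Ripk1 was 1.18-fold lower.

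Upstream, p53 and its regulators and targets split, 4 of 16 genes being higher and 5 lower, and their median log2 fold change was -0.01. Of all genes tested, 27.2% were called higher and 26.6% lower. Trp53 itself, named after its value was seen, did not pass (2359 ± 77.9 normalized counts with UK-5099; log2 fold change 0.09, limma adjusted p = 0.105), though it did after upper-quartile rescaling (0.0175) and with limma-voom on recovered reads (0.0263). After upper-quartile rescaling 6 genes of the p53 list were higher and 4 lower. Among the targets Cdkn1a was 1.50-fold and Trp53inp1 1.41-fold lower, whereas Perp, a desmosomal protein that p63 also controls, was 1.89-fold higher. Trp63, which encodes p63, was 1.70-fold higher. Of the members, Bax and Bbc3 were lower too, while the p53 target Pmaip1 did not pass. In the list of 10 other regulators of BH3-only genes, 5 were higher and 3 lower, against the same shares of all genes tested. All are transcription factors but Trib3, a pseudokinase, which was among the higher genes. Foxo3 was 1.46-fold lower, with means of 2813 ± 195 and 4105 ± 77.4 (SD, n = 3; limma adjusted p = 3.67e-06), and Jun was 1.73-fold lower. The third lower gene, Foxo1, named after its value was seen, was 1.29-fold lower. Egr1 and Atf4, the latter a factor of the stress response, were 2.40-fold and 1.25-fold higher.

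At the outer membrane, 5 of 12 genes were higher and 3 lower, against 27.2% of all genes tested called higher and 26.6% called lower. Vdac2, the channel that recruits BAK1 and BAX, was 1.20-fold lower, whereas Vdac3, the fission enzyme Dnm1l and the ligase Marchf5 were 1.22-fold, 1.43-fold and 1.25-fold higher. In the list for turnover and control of MCL1 and other family proteins, 6 of 10 genes were lower and none higher. The median log2 fold change of the 10 was -0.21. The lower genes were 8 after centring and 5 after upper-quartile rescaling. Of all genes tested, 53.8% were called, and 26.6% were called lower. Huwe1, a ligase that marks MCL1 for degradation, was 1.35-fold lower, with means of 17981 ± 1196 and 24304 ± 773. Tmbim6 (BAX inhibitor 1, a membrane protein of the endoplasmic reticulum) was 1.53-fold lower, and the chaperone partners Bag3 and Bag6 were 1.46-fold and 1.16-fold lower.

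**Figure D4:**
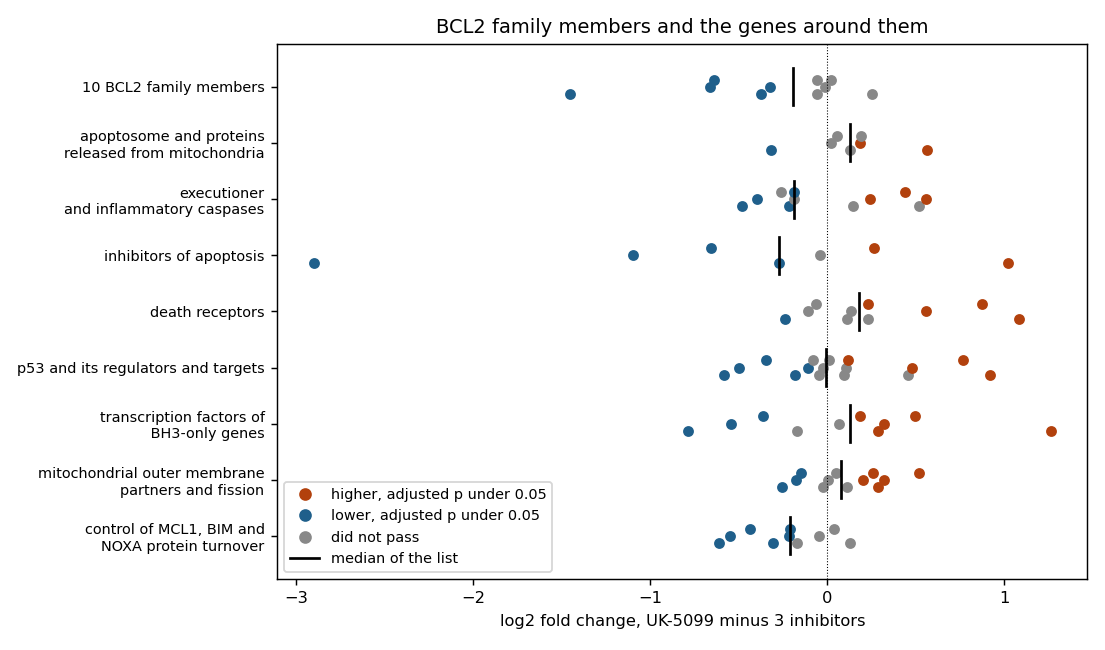
Log2 fold change, UK-5099 minus 3 inhibitors (x axis), of each tested gene of the 10 members and of 8 lists around them (y axis), coloured by limma call, with the median of each list as a bar. The members' median is -0.19, that of the inhibitors of apoptosis -0.27 and that of the death receptor list 0.18. The list of transcription factors also holds Trib3, a pseudokinase.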

How the data were processed

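The deposited values are the log2 of read counts per gene after scaling by the authors with library size factors, a unit other than plain counts, in which a text mark stands for a count of 0. HISAT2 2.1.0, DESeq2 1.36.0 and GRCm39 appear in the submitters' processing notes, and the read counter is not given in the sources used here. Values were raised back to normalized counts, 359 repeated identifiers were dropped, and at least 99.988% of values were within 0.02 of a whole read.

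Genes whose mean reached 10 normalized counts were fitted by limma 3.58.1 in R 4.3.3 (eBayes with a trend, two-sided, no covariate) on log2 of the normalized count plus 1, as planned for log values, and p was adjusted over all genes tested. The median SE of the fit was 0.0858. The steps were also run on simulated data in which far fewer genes differed than were called here. That run therefore does not measure the error of these calls. Lengths and exon overlaps came from GENCODE M21 and promoter windows from RefSeq, both on GRCm38, matched by identifier or symbol. Python 3.11.15 was used with numpy 2.4.6, pandas 2.3.3 and matplotlib 3.10.9.

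The members and lists were chosen with earlier results of these data known, and the ratios, promoters and motifs were chosen after the values were seen. Named genes were the 10 members, the other listed BCL2 family genes, up to 4 called genes of each further list by smallest adjusted p, and the first and called genes of marker lists. Values for some genes under this rule are left out. Alternatives were other scalings, pseudocounts, low filters, variance models and thresholds, limma-voom on recovered reads, a replicate block, and leaving out single libraries.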

Additional observations from a re-analysis of the deposited data

How the results depend on the processing

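The 5 called members kept direction and call in all 79 fits of the 16 alternatives that tested them. Of the 10 members, 7 were called, all lower, after centring on the median, 6 with no trend in the variance model, 4 with a minimum mean of 50 and 5 to 6 with a library left out. Requiring a change of at least 1.5-fold left 3 members, 14 other apoptosis genes of 60, and 3402 of 8449 genes overall. With a library left out, the counts ran from 51 to 64 other apoptosis genes and from 7336 to 9146 genes overall. Centring lowered log2 fold changes by 0.0887. The sign of the log2 fold change turned for Pmaip1 after centring (-0.0667) and without UK-5099 replicate 3, with values from -0.0253 to 0.0716 when a library was left out. It turned for Bid after upper-quartile rescaling (0.0185), with limma-voom on recovered reads (0.0119), and without UK-5099 replicate 2 or 3-inhibitor replicate 1, with values from -0.0317 to 0.0115 when a library was left out. Neither gene was called in any of these fits, and the cause was not tested. With the replicate number as a block, 8423 genes, 5 members and 59 other apoptosis genes were called, and Bcl2l2 lost its call (adjusted p = 0.0604). Deviations of same-numbered libraries correlated at -0.0170, 0.116 and -0.0886, and not every library correlated best with its own number, so the numbers were not taken as pairs. Bik, with 15 to 70 reads a library, is the member whose value depth limits most.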

Other observations

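Ratios of 2 genes within a library do not depend on how libraries are scaled, and 5 were chosen after the values were seen. Bax reads per Bcl2 read, the pore former over a guardian, stood at 12.2, 11.4 and 12.6 in the UK-5099 libraries and at 18.7, 18.6 and 18.8 with the 3 inhibitors. Against Bcl2l1, the guardian that was itself lower, the ratio went the other way: Bax stood at 0.767, 0.718 and 0.724 of Bcl2l1 with UK-5099 and at 0.592, 0.610 and 0.607 with the 3 inhibitors. The direction of the Bax ratio in these libraries therefore differed between these 2 guardians. The ratio to Mcl1 was not among the 5. The log2 fold change of Mcl1 was -0.06, against -0.37 for Bax, so Bax was lowered more than Mcl1, as it was relative to Bcl2. Bcl2l1 stood at 0.269 ± 0.005 of Mcl1 in UK-5099 libraries and at 0.409 ± 0.006 in the others (SD, n = 3). Among BH3-only genes, Bbc3 stood at 0.088 ± 0.012 of Pmaip1 against 0.139 ± 0.004, and Bcl2l11 at 0.792 ± 0.037 of Bid against 0.983 ± 0.022. Each ratio holds at least 1 gene whose own values did not overlap between the groups, so that the ratios stand apart is no further result. The values are counts, not counts per length, so they compare libraries and not the genes.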
